A study of Mus musculus with 18 samples.

Results

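The genes described here encode plasminogen activators with their receptor and an inhibitor, ADAMTS proteases, and TIMP inhibitors of metalloproteinases, measured in mouse embryonic fibroblasts. They are 10 genes: Plau, Plaur, Plat, Serpinb2, Adamts1, Adamts4, Adamts5, Timp1, Timp2 and Timp3. Every probe set whose annotation names 1 of these genes alone was taken, which gave 24 of the 45101 probe sets and 10 of the 18193 genes that have a probe set of their own on the array. Of the 24 probe sets, 21 passed the filter on dim signal and entered the tests. The other 3, which belong to Plat, Adamts5 and Timp2 and stand beside brighter probe sets of the same gene, lay under a log2 intensity of 5 in all 18 arrays. That level is called the dim level below.

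The cells were fibroblasts grown from E12.5 to E14.5 mouse fetuses after the head, the liver and blood clots had been taken off, cultured in medium with serum. They were wt, or carried 1 copy (heterozygous) or 2 copies (homozygous) of a mutant allele said by the submitters to be constitutively active. Their title names TGFBR1, with a point mutation, and their design text names TGFb1, so it is called only the mutant here. Cells of each genotype were untreated or received TGF-b1 at 5 ng/mL for 4 h or 24 h, and each of the 9 groups had 2 arrays. How long untreated cells were kept in vehicle is not given, and no label ties the arrays of a group to embryos or cultures. Where arrays share a culture, a p-value measures only the spread between these arrays.

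Plasminogen is cut to plasmin, a protease that degrades fibrin and activates other proteases, by the urokinase and tissue-type activators, which Plau and Plat encode. Plaur encodes the receptor that holds urokinase at the cell surface, and Serpinb2 encodes plasminogen activator inhibitor type 2. ADAMTS1, ADAMTS4 and ADAMTS5 are secreted metalloproteinases that cleave proteoglycans such as aggrecan and versican. TIMP1, TIMP2 and TIMP3 inhibit matrix metalloproteinases, and TIMP3 also inhibits ADAMTS4 and ADAMTS5. TGFb is known for shifting fibroblasts from the degradation of matrix towards its deposition.

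Arrays were alike in overall signal: 39.48 to 40.33% of probe sets lay at or above the dim level, and the median intensity on the linear scale was 8.42 to 9.16. Of 10 fibroblast markers 9 lay above the dim level in all arrays and Pdgfra in 13 of 18. Of 10 macrophage markers 8 lay also above the dim level in every array. The 10 markers' summed intensity was 10.02 to 12.52 on the log2 scale in wt arrays and 12.77 to 14.10 in mutant arrays. Of the endothelial markers 5 of 6 lay below the dim level in every array, of the epithelial ones 3 of 6, of the skeletal muscle ones 3 of 5, and of the red blood cell ones 2 of 2. In such bulk samples fewer cells of a type and less RNA per cell cannot be told apart.

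The wt arrays fell into 2 kinds. Xist, the RNA of the inactive X chromosome in female cells, was at 11.27 to 11.64 in untreated array 1, array 2 after 4 h and array 2 after 24 h. In the other 3 wt arrays it was at 1.58 to 1.61, where the Y-linked gene Eif2s3y was at 10.41 to 10.75 against 2.95 to 4.37 in the first 3. The 2 arrays of each wt group therefore did not hold the same cells. All 6 heterozygous arrays had high Xist (11.32 to 11.77), and in homozygous cells array 1 had it at each time (11.34 to 11.88) and array 2 did not (1.58 to 2.68). Among the 10 genes Plau had the widest gap between the 2 kinds of wt array.

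Plau was low in the 3 wt arrays with high Xist and high in all the others. In untreated wt cells it was at 6.10 in array 1 and 10.77 in array 2. After 4 h it was at 11.01 and 6.33, and after 24 h at 10.63 and 5.13. The mutant arrays did not share this split: heterozygous arrays were at 10.06 to 11.08, and homozygous arrays at 10.17 to 11.03 with high Xist and at 10.39 to 11.33 without. A second Plau probe set gave the same picture (r = 0.99 over 18 arrays), with a gap of 4.01 to 6.33 log2 units between the 2 arrays of each wt group.

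With these gaps the SE of each Plau comparison between 2 groups was 1.73, and none of the 20 comparisons of Plau passed the limma test. The mean changes at 4 h were 0.23 in wt, 0.23 in heterozygous and 0.54 in homozygous cells, with adjusted p from 0.840 to 0.947. In a fit of the 12 mutant arrays alone, chosen after the data were seen, Plau was lower at 24 h than at 4 h, with a change of -0.62 log2 units in heterozygous cells (adjusted p = 0.0437) and of -0.90 in homozygous cells (adjusted p = 0.00773). Its rise at 4 h in homozygous cells did not pass there for the brighter probe set (0.54, adjusted p = 0.0661) and passed for the other one (0.85, adjusted p = 0.0189).

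Macrophage markers moved with Plau in the mutant arrays, while the 2 kinds of wt array stood in the opposite order. Over the 12 mutant arrays Plau followed the mean of the 10 markers with r = 0.77, while over all 18 arrays r was 0.34. These arrays share treatments and may share cultures, so the coefficients are a description. In wt cells the arrays with low Plau had the higher macrophage sum (11.37 to 12.52) and those with high Plau the lower one (10.02 to 10.65). Among the 3 wt arrays with low Plau, levels of 5.13, 6.10 and 6.33 went with marker means of 7.29, 7.68 and 8.42. Among the 3 with high Plau, levels of 10.63, 10.77 and 11.01 went with marker means of 6.01, 6.71 and 6.64. In both sets these were the 24 h, untreated and 4 h arrays in that order, so marker level and treatment cannot be told apart. A fit with the marker mean as a covariate was added after the data were seen. The fitted difference of Plau between mutant and wt rose there from 2.20 to 2.58 log2 units to 7.62 to 10.8 (limma adjusted p = 0.00223 to 0.00405). Every mutant array had a higher macrophage sum than every wt array, so this fit extrapolates and cannot separate genotype from marker level. No size is read from it. In the fit without the 3 wt arrays of high Xist, the untreated difference of Plau from wt was 0.07 in heterozygous and -0.135 in homozygous cells. Over the 9 group means the genes most like Plau were Ms4a6b (r = 0.993), Lyz2 (r = 0.988) and Lyz1 (r = 0.988). The Plau mean of each wt group lies between a low and a high array, at a level that no array had. By array, Lyz2, the lysozyme gene of macrophages, was at 9.76 to 10.99 in the wt arrays with low Plau. In those with high Plau it was at 8.01 to 8.77.

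**Figure D1:**
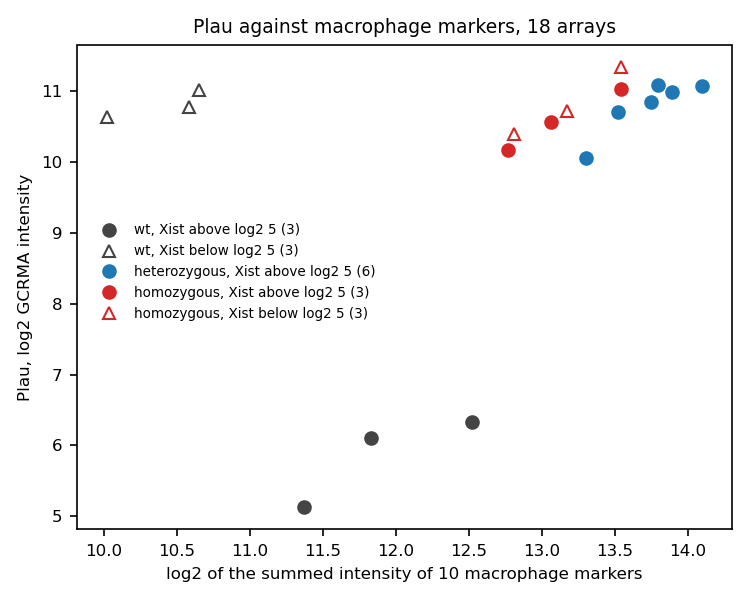
Plau level (log2 GCRMA intensity, vertical axis) against the log2 of the summed intensity of 10 macrophage markers (horizontal axis) in the 18 arrays. Filled circles are arrays with Xist above log2 5 and open triangles those below it. The 3 wt arrays with high Xist lie at a Plau level of 5.13 to 6.33, and the other 15 arrays at 10.06 to 11.33.

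The receptor gene Plaur rose sharply at 4 h and fell again by 24 h in every genotype. Untreated wt arrays were at 10.44 and 11.24, arrays after 4 h at 12.48 and 12.17, and arrays after 24 h at 10.95 and 10.78. The heterozygous arrays went from 10.50 and 10.61 to 12.28 and 12.55, and then to 10.72 and 10.75. The homozygous arrays went from 10.35 and 10.34 to 12.46 and 12.36, and then to 10.91 and 10.83. The 4 h arrays lay above all the untreated and all the 24 h arrays of any genotype.

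Against untreated cells Plaur rose at 4 h by 1.48 log2 units in wt cells (2.8-fold, SE 0.20, limma adjusted p = 0.000486). The rise was 1.86 in heterozygous cells (3.63-fold, adjusted p = 6.02e-05) and 2.06 in homozygous cells (4.18-fold, adjusted p = 2.36e-05). At 24 h it stood 0.02, 0.18 and 0.52 above untreated in wt, heterozygous and homozygous cells, and none of these passed (adjusted p = 0.157 to 0.962). The last did pass without either untreated wt array (adjusted p = 0.0158 and 0.016) and in the fit of mutant arrays alone (adjusted p = 0.00362). From 4 h to 24 h it fell, with changes of -1.46, -1.68 and -1.54 (adjusted p = 0.000451, 0.000148 and 0.000226). The calls at 4 h and between 4 h and 24 h held when any single array was left out.

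Serpinb2 also peaked at 4 h, from a level that was dim in 5 of the 6 untreated arrays. In untreated cells the wt arrays were at 4.39 and 5.59, the heterozygous ones at 3.55 and 2.47, and the homozygous ones at 2.63 and 2.62. After 4 h they were at 7.46 and 8.40 in wt, 7.86 and 8.02 in heterozygous and 7.96 and 7.40 in homozygous cells. After 24 h all 6 arrays were dim again, at 2.65 to 4.64. All 4 h arrays were above the dim level and no other array except untreated wt array 2 was.

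In wt cells the rise of Serpinb2 at 4 h was 2.94 log2 units (SE 0.56, adjusted p = 0.00492), a 7.65-fold change of uncertain size since 1 of the untreated arrays was dim. It lost the call without untreated array 1 (2.34, adjusted p = 0.0508) or without 4 h array 2 (2.47, adjusted p = 0.0508). In the mutants the untreated arrays were both dim, so the rise is a bound: at least 7.66-fold in heterozygous cells (adjusted p = 0.000108) and at least 6.42-fold in homozygous cells (adjusted p = 6.91e-05). From 4 h to 24 h it fell at least 7.61-fold in wt, 7.66-fold in heterozygous and 6.42-fold in homozygous cells (adjusted p = 0.000821, 0.00034 and 0.000124).

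Plat, the tissue-type activator, passed in no comparison of the fit to all arrays. Its 18 arrays ran from 10.44 to 11.58. In wt cells it went from 11.43 and 11.01 to 10.44 and 10.91 at 4 h, with no overlap, a change of -0.54 (SE 0.25, unadjusted p = 0.0458, adjusted p = 0.142). With the macrophage covariate this change was -0.645 and passed (adjusted p = 0.0392). In the mutants the 4 h change was -0.36 in heterozygous and -0.37 in homozygous cells (adjusted p = 0.296 and 0.263), again without overlap of the arrays. At 24 h the changes were -0.34, -0.14 and -0.43 (adjusted p = 0.401 to 0.928), and the heterozygous arrays overlapped.

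**Figure D2:**
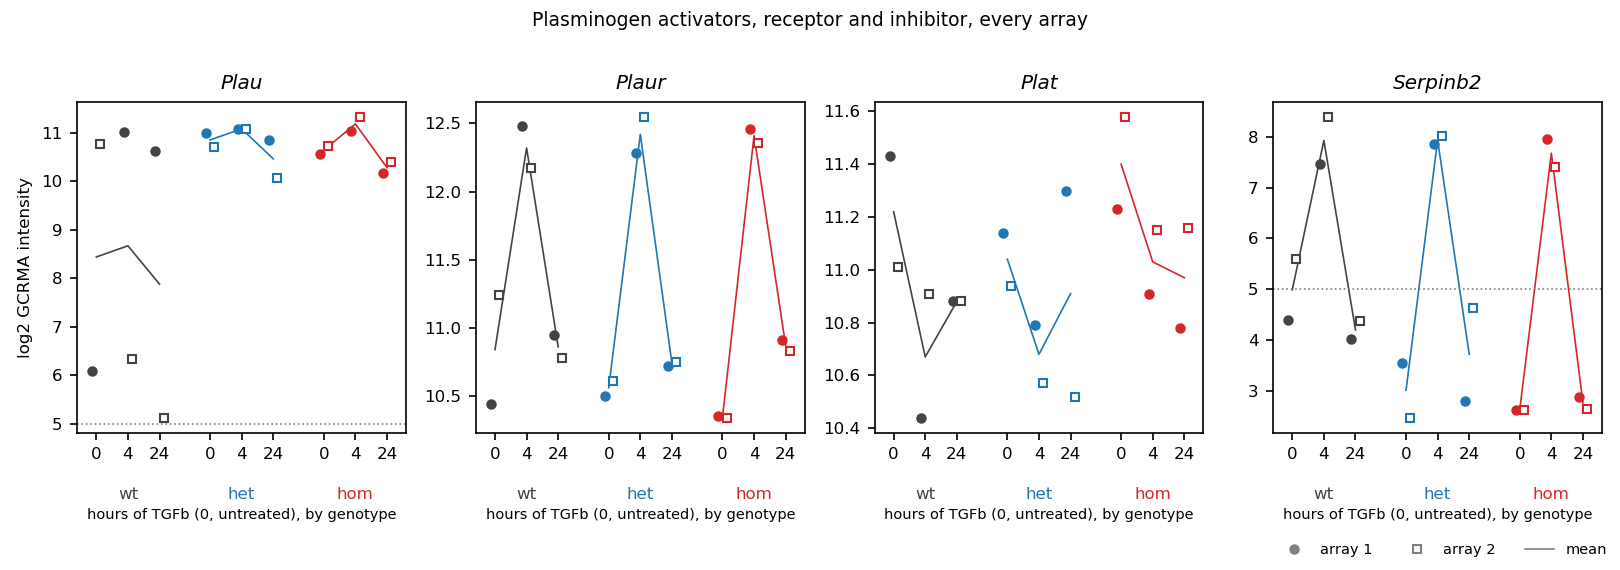
Log2 GCRMA intensity (vertical axis, with a range of its own in each panel) of the brightest probe set of Plau, Plaur, Plat and Serpinb2 in each array, by genotype and hours of TGFb. Filled circles are array 1, open squares array 2, lines join the group means, and the dotted line marks log2 5. Plaur and Serpinb2 are high at 4 h and low at 0 h and 24 h in all genotypes.

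The sequences before the starts of genes that rose at 4 h are shown because Plaur and Serpinb2 moved together (r = 0.96 over the 9 group means). RefSeq sequences on GRCm38.p6 were at hand for 6 of the 10 genes. In the 250 bases before the start, AP-1 elements (TGANTCA), CRE elements (TGACGTCA), the palindromic SMAD element (GTCTAGAC) and the SMAD element of the CAGA kind (CAGACA) were searched on both strands. Capitals mark a match, and each line runs 5′ to 3′ on the strand of the gene. The windows are chr7:24462233-24462482 (plus strand) for Plaur, chr1:107511173-107511422 (plus strand) for 1 of 2 listed Serpinb2 starts, chrX:20869916-20870165 (plus strand) for Timp1 and chr10:86300162-86300411 (plus strand) for Timp3.
Plaur: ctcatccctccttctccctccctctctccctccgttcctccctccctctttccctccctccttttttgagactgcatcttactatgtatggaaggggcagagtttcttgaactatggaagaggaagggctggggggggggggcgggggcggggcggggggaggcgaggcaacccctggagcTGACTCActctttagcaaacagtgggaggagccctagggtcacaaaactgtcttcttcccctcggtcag
Serpinb2: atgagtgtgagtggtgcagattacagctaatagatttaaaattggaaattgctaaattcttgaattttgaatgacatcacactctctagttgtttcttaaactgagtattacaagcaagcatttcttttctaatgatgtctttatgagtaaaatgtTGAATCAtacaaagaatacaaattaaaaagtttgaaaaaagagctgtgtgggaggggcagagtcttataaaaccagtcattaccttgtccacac
Timp1: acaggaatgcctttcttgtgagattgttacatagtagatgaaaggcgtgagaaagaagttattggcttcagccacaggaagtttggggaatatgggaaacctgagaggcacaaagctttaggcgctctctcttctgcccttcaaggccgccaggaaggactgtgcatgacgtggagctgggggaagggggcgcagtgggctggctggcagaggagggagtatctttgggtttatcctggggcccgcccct
Timp3: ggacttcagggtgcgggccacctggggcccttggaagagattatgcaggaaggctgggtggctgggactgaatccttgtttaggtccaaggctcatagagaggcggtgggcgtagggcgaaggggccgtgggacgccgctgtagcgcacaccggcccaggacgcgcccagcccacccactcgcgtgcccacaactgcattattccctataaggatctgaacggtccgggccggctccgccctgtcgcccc
Plaur and Serpinb2 each held 1 AP-1 match, TGACTCA beginning 69 bases and TGAATCA beginning 94 bases before the start. Of 32851 RefSeq windows of this length 6.75% held an AP-1 match, 1.55% a CRE, 0.167% the SMAD palindrome and 17.1% the CAGA element. The windows of Timp1, Timp3, Adamts1 and Timp2 held none of these letters. The windows of Plaur and Serpinb2 lie within the annotated spans of these genes, so other starts lie further upstream. A match is a string of letters and says nothing of binding.

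Timp1 and Timp3 also rose at 4 h, and Timp1 stayed raised. Timp1 was bright in all arrays. Untreated arrays were at 14.00 and 13.85 in wt, 13.96 and 13.87 in heterozygous and 13.89 and 13.99 in homozygous cells. At 4 h they were at 14.60 and 15.12, at 14.91 and 14.95, and at 14.94 and 15.07. At 24 h they were at 14.24 and 14.73, at 14.51 and 14.66, and at 14.66 and 14.81. Every treated array lay above every untreated array.

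The 4 h rise of Timp1 was 0.94 in wt, 1.01 in heterozygous and 1.06 in homozygous cells (1.91-, 2.02- and 2.09-fold, SE 0.16), with limma adjusted p of 0.00256, 0.000964 and 0.000491. These calls held when any single array was left out. At 24 h it was still raised by 0.56, 0.67 and 0.80 (adjusted p = 0.0487, 0.0313 and 0.00976). The 24 h call in wt cells was lost in 15 of the 18 fits that left out an array, with adjusted p of up to 0.362. In heterozygous cells it was lost without either untreated or either 24 h array (adjusted p = 0.106 to 0.199), and in homozygous cells without untreated array 1 or 24 h array 2 (0.0962 and 0.0934). From 4 h to 24 h the changes were -0.38, -0.34 and -0.27, and none passed (adjusted p = 0.0896 to 0.222), though in wt cells the fall passed without 4 h array 1 (0.00703) or 24 h array 2 (0.025). In the fit of mutant arrays alone both mutant falls passed (adjusted p = 0.00376 and 0.0121).

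Timp3 had 4 probe sets, all of which were called higher at 4 h in every genotype and none at 24 h. The brightest went from 12.06 and 11.75 to 13.28 and 13.34 in wt cells, and then to 12.10 and 12.60. In heterozygous cells it went from 12.09 and 11.56 to 13.38 and 13.35, and then to 12.49 and 12.03. In homozygous cells it went from 12.13 and 12.39 to 13.47 in both 4 h arrays, and then to 12.62 and 12.87. The 4 h arrays stood above all other arrays.

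This rise was 1.41 in wt, 1.54 in heterozygous and 1.21 in homozygous cells (2.65-, 2.9- and 2.32-fold, SE 0.20, adjusted p = 0.000868, 0.000295 and 0.000927). Over the 4 probe sets it ran from 1.41 to 1.59 in wt, from 1.54 to 1.83 in heterozygous and from 1.21 to 1.60 in homozygous cells. At 24 h the brightest probe set was 0.45, 0.44 and 0.48 above untreated (adjusted p = 0.206, 0.334 and 0.214). From 4 h to 24 h the changes were -0.96, -1.10 and -0.73 (adjusted p = 0.0046, 0.00229 and 0.0166). The last of these calls was lost without either 4 h array or 24 h array 1 of homozygous cells (adjusted p = 0.0696 to 0.116).

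Timp2 was nearly level. Its brightest probe set ran from 13.55 to 14.09 over all arrays, and none of the 5 probe sets tested passed in any of the 6 TGFb comparisons, with changes between -0.35 and 0.35. From 4 h to 24 h in wt cells, where the arrays went from 13.85 and 14.09 to 13.69 and 13.55, 1 of the 5 was called lower (-0.35, adjusted p = 0.0129). At 4 h in wt cells this probe set was called higher without 4 h array 1 (adjusted p = 0.0254). The 24 h call was lost without 4 h array 2 or 24 h array 2 (adjusted p = 0.122 and 0.0994). In the fit of mutant arrays alone 4 of the 5 fell in heterozygous cells from 4 h to 24 h, with changes of -0.58 to -0.24 (adjusted p = 0.00441 to 0.0396). In homozygous cells 1 of the 5 was called (-0.247, adjusted p = 0.0494), and the others changed by -0.232 to -0.0358.

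**Figure D3:**
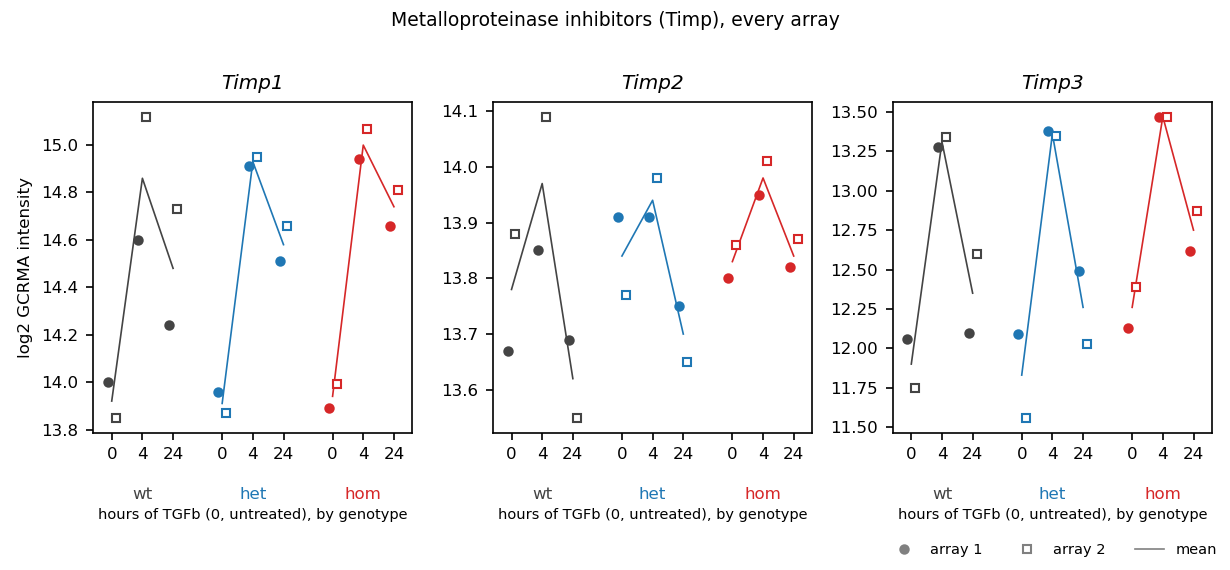
Log2 GCRMA intensity (vertical axis, with a range of its own in each panel) of the brightest probe set of Timp1, Timp2 and Timp3 in each array, by genotype and hours of TGFb. Filled circles are array 1, open squares array 2 and lines join the group means. Timp1 and Timp3 have their highest group means at 4 h, though in wt cells a Timp1 array at 24 h (14.73) lies above one at 4 h (14.60). The Timp2 panel spans only 13.55 to 14.09.

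Adamts1 and Adamts5, which both lie on chromosome 16, fell at 4 h and stayed low at 24 h. Adamts1 was at 10.86 and 10.36 in untreated wt arrays, 9.06 and 9.08 at 4 h, and 9.31 and 9.65 at 24 h. In heterozygous cells it was at 9.92 and 11.05, then 8.57 and 9.39, then 8.91 and 9.20. In homozygous cells it was at 10.59 and 10.40, then 9.07 and 8.99, then 9.28 and 8.99. All treated arrays lay below all untreated arrays.

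The change of Adamts1 at 4 h was -1.54 log2 units in wt, -1.5 in heterozygous and -1.46 in homozygous cells (2.91-, 2.83- and 2.75-fold lower, SE 0.33, limma adjusted p = 0.00865, 0.00586 and 0.00496). At 24 h the change was -1.12 in wt cells, just short of the threshold (adjusted p = 0.0513, and 0.019 to 0.0386 without any 1 of the 4 heterozygous arrays that were untreated or treated for 4 h). It was -1.43 in heterozygous and -1.36 in homozygous cells (adjusted p = 0.0245 and 0.0267). The 4 h call in wt was lost without untreated array 1 (adjusted p = 0.0719), and that in heterozygous cells without untreated array 2 (0.0663) or 4 h array 1 (0.0628). The 24 h calls were lost without untreated array 2 or either 24 h array in heterozygous cells and without any array of either time in homozygous cells (adjusted p = 0.0732 to 0.24).

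Adamts5 fell further, and its 3 tested probe sets moved together (r = 0.98 for each pair). The brightest was at 11.27 and 10.40 in untreated wt arrays, 8.48 and 9.29 at 4 h, and 8.18 and 9.04 at 24 h. In heterozygous cells it was at 10.17 and 11.59, then 8.17 and 9.43, then 7.89 and 8.79. In homozygous cells it was at 11.26 and 10.79, then 9.15 and 8.63, then 8.62 and 8.50. No treated array reached the level of any untreated array.

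At 4 h Adamts5 changed by -1.95, -2.08 and -2.13 log2 units in wt, heterozygous and homozygous cells (3.87-, 4.22- and 4.39-fold lower, SE 0.54, adjusted p = 0.0282, 0.014 and 0.0093). At 24 h the change was -2.22, -2.53 and -2.47 (4.66-, 5.79- and 5.53-fold, adjusted p = 0.0231, 0.0164 and 0.0154). The other probe sets were called in the same direction in all 6 comparisons, except 1 of them in wt cells at 24 h (adjusted p = 0.0891). The 2 arrays of a group differed in level by up to 1.42 log2 units, which widened the error. Between arrays of the same kind the fall was steady: at 4 h it was -1.99 in the wt arrays with high Xist and -1.92 in the others, and -2.00 to -2.16 in the 4 pairs of mutant arrays with the same number.

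Leaving out 1 array ended several of these Adamts5 calls. In wt cells the 4 h call went without untreated array 1 (adjusted p = 0.176), 4 h array 1 (0.0934) or 4 h array 2 (0.0531), and the 24 h call without untreated array 1 (0.0855) or 24 h array 1 (0.140). In heterozygous cells both calls went without untreated array 2 (0.147 at 4 h, 0.185 at 24 h) or array 1 of the treated group (0.131 and 0.173). In homozygous cells the 4 h call went without untreated array 1 (0.0684) or 4 h array 2 (0.066), and the 24 h call without any of its 4 arrays (0.06 to 0.141).

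Adamts4 moved the other way and later. It was at 7.95 and 7.50 in untreated wt arrays, 7.45 and 7.56 at 4 h, and 9.47 and 8.67 at 24 h. In heterozygous cells it was at 8.68 and 8.11, then 8.79 and 8.01, then 10.43 and 9.75. In homozygous cells it was at 8.61 and 8.71, then 8.56 and 8.70, then 10.15 and 10.28. Within each genotype the 24 h arrays lay above the rest, and the untreated and 4 h arrays overlapped.

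At 4 h its change was -0.22, 0.01 and -0.03 (adjusted p = 0.666, 0.988 and 0.953). At 24 h it rose by 1.35 in wt, 1.7 in heterozygous and 1.56 in homozygous cells (2.54-, 3.24- and 2.95-fold, SE 0.32, adjusted p = 0.0196, 0.00759 and 0.00995). From 4 h to 24 h it rose by 1.57, 1.69 and 1.59 (adjusted p = 0.00353, 0.00244 and 0.00285), calls that held when any single array was left out. Those against untreated were lost without untreated array 2 or 24 h array 1 in wt (0.123 and 0.146) and heterozygous cells (0.0979 and 0.105), and without any of the 4 arrays in homozygous cells (0.0593 to 0.0865).

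A second Adamts4 probe set did not follow the first (r = 0.09 over 18 arrays). It was dim in 16 arrays and above the dim level in untreated wt array 1 (5.92) and in wt array 2 after 24 h (7.60), which are among the arrays with high Xist and low Plau. In the fit of all arrays it was called in none of the 20 comparisons. In the fit of mutant arrays alone it was called higher at 24 h than at 4 h, by 1.23 in heterozygous and 1.24 in homozygous cells (adjusted p = 0.0344 and 0.0312), although it was dim in all those arrays. With the macrophage covariate it was called lower in mutant than in wt cells in 6 comparisons (adjusted p = 0.0176 to 0.0255) and higher at 24 h than at 4 h in wt and homozygous cells (0.0126 and 0.0236). Since it was dim in nearly all arrays, and the covariate cannot be separated from genotype, no size is read from these calls.

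**Figure D4:**
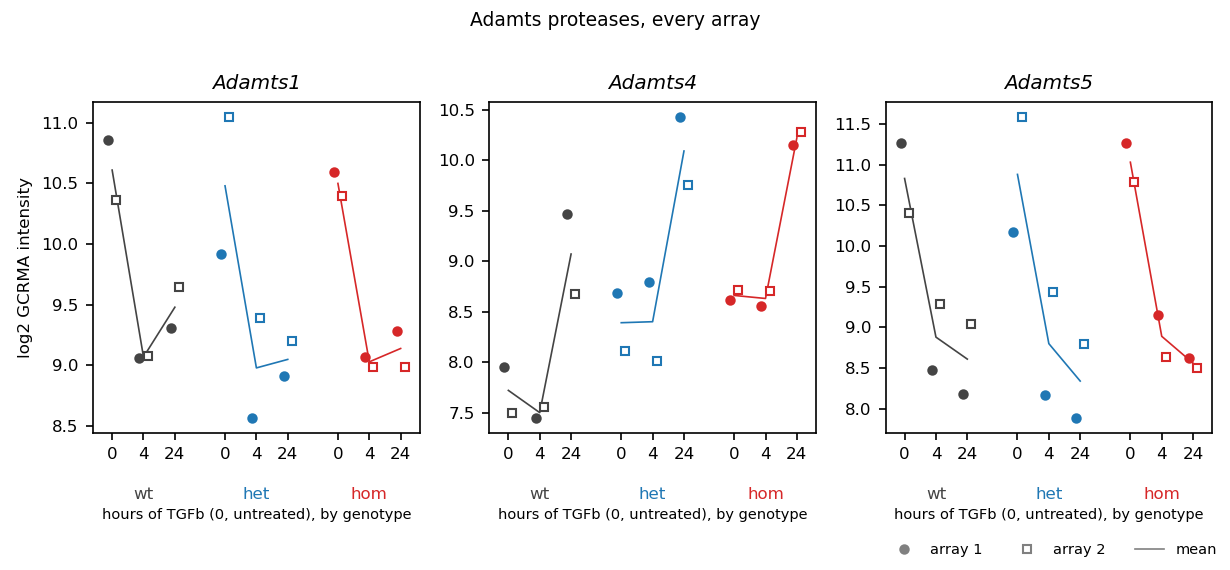
Log2 GCRMA intensity (vertical axis, with a range of its own in each panel) of the brightest probe set of Adamts1, Adamts4 and Adamts5 in each array, by genotype and hours of TGFb. Filled circles are array 1, open squares array 2 and lines join the group means. Adamts1 and Adamts5 are lower in all treated arrays than in untreated ones, and Adamts4 is higher at 24 h.

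Counted over the 21 probe sets, 11 were called at 4 h in each genotype, 7 higher and 4 lower. Of all 18958 probe sets tested, 17.1% were called in wt, 26.5% in heterozygous and 35% in homozygous cells. By the brightest probe set of each gene, 6 of 10 genes were called at 4 h in each genotype: Plaur, Serpinb2, Timp1 and Timp3 higher, and Adamts1 and Adamts5 lower. At 24 h the probe sets called were 4 in wt, where 2 rose and 2 fell, and 6 in each mutant genotype, where 2 rose and 4 fell. The share of all probe sets was 9.14% in wt, 5.07% in heterozygous and 6.44% in homozygous cells. The 4 h and 24 h comparisons of a genotype share their untreated arrays. Without the 3 wt arrays of high Xist, which leaves 1 array in each wt group, the 4 h changes in wt cells were 1.87 for Serpinb2, -1.30 for Adamts1 and -1.92 for Adamts5. The median change of the 21 probe sets at 4 h was 0.01, 0.18 and 0.07 in wt, heterozygous and homozygous cells, beside -0.044, 0.003 and -0.003 over all probe sets. At 24 h it was -0.20, -0.14 and -0.16, beside -0.024, 0.010 and -0.027.

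Between 4 h and 24 h the probe sets called were 8 in wt (1 higher, 7 lower), 7 in heterozygous and 7 in homozygous cells (1 higher and 6 lower in each). The share over all probe sets was 32.5%, 29.1% and 33.3%, so the members' shares of 8 and 7 in 21 were near the background. In the fit of mutant arrays alone 15 of 21 were called in heterozygous and 12 in homozygous cells, beside 44.2% and 48% of all probe sets. When limma was fitted to only the groups compared, 0 of 21 were called in wt cells at 4 h, at 24 h and between these times, with 11, 6 and 8 at an unadjusted p under 0.05. The 31 calls after TGFb and 22 between the times that such fits gave over all genotypes were thus all in mutant cells. The share of all probe sets is not given for these fits, so the loss in wt cells is not read as particular to the members.

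**Figure D5:**
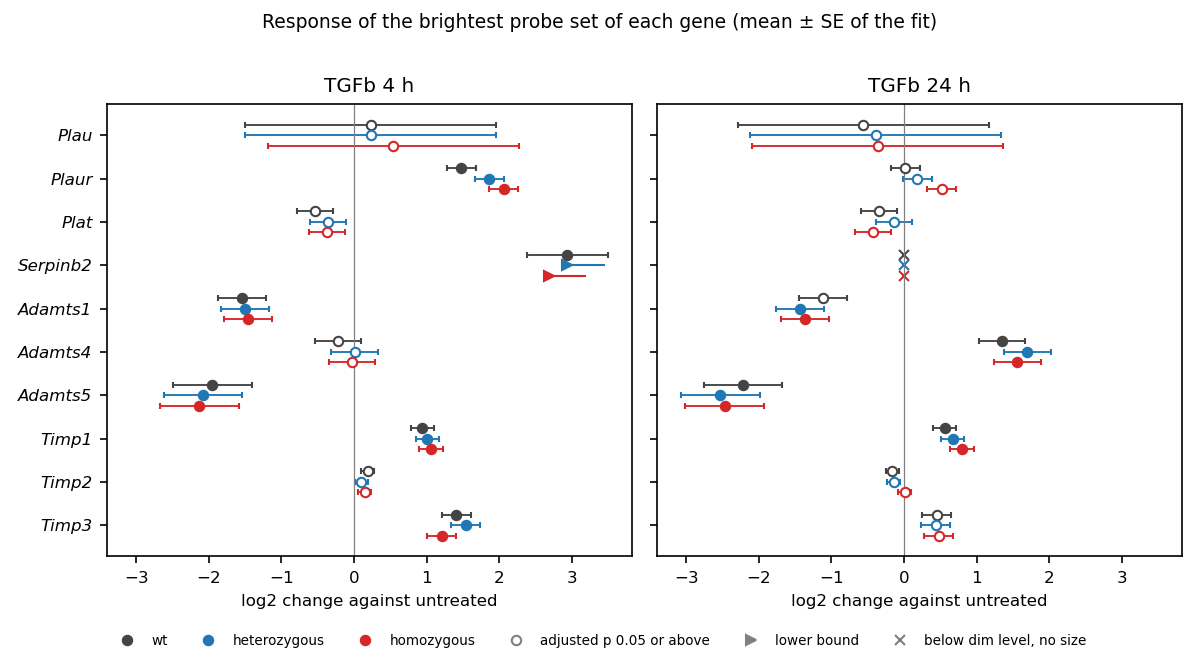
Log2 change against untreated cells (horizontal axis) of the brightest probe set of each gene after 4 h (left) and 24 h (right) of TGFb. Points are fitted differences of 2 arrays against 2 and bars are 1 SE of the fit to all 18 arrays; filled points passed an adjusted p of 0.05, triangles are lower bounds, and crosses mark Serpinb2 below the dim level, drawn at 0 without a size. Plaur, Serpinb2, Timp1 and Timp3 lie right of 0 at 4 h, and Adamts4 lies near 0 at 4 h and right of it at 24 h.

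No member passed the test between genotypes. In untreated cells 0 of the 21 probe sets were called by limma for heterozygous against wt (0.586% of all probe sets called), homozygous against wt (0.744%) or homozygous against heterozygous (0%), with 1, 3 and 0 at an unadjusted p under 0.05. After 4 h of TGFb 0 were called for heterozygous (0.891%) or homozygous (0.907%) against wt, and after 24 h 0 again (0.654% and 0.269%), with 1, 1, 1 and 3 at an unadjusted p under 0.05. A p above the threshold does not show equal levels.

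By its brightest probe set Adamts4 lay higher in mutant than in wt arrays at every time, without passing the test. The second probe set, dim in nearly all arrays, went the other way, with differences of -1.71 to -0.94, and did not pass either. Its untreated arrays were at 7.50 and 7.95 in wt and 8.11 to 8.71 in the mutants, and after 24 h at 8.67 and 9.47 against 9.75 to 10.43. The differences ran from 0.67 to 1.15 log2 units (SE 0.32), with adjusted p of 0.123 to 0.569. Without the 3 wt arrays of high Xist, which leaves 1 array in each wt group, the untreated difference in homozygous cells was 1.16. The macrophage sum was also higher in every mutant array than in every wt array. With the mean of the macrophage markers as a covariate the 6 differences were 0.458 to 0.967, and none passed (adjusted p = 0.206 to 0.67). As the marker levels of wt and mutant arrays did not overlap, this fit cannot separate genotype from marker level. Over the 12 mutant arrays Adamts4 had r = -0.43 with the marker mean, and over all 18 arrays r was 0.26. A part of macrophages in the difference was not tested.

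Serpinb2 was lower in all untreated mutant arrays than in both untreated wt arrays. For Plaur this held in homozygous cells, while the heterozygous arrays lay between the wt arrays. The fitted difference of Plaur was -0.28 in heterozygous and -0.50 in homozygous cells (adjusted p = 0.709 and 0.228). Without untreated wt array 1 it was -0.69 and -0.90, and without untreated wt array 2 it was 0.118 and -0.0941. Serpinb2 lay below the dim level in all untreated mutant arrays, with adjusted p of 0.216 for heterozygous and 0.068 for homozygous cells against wt. For the homozygous cells a Serpinb2 call was made, with adjusted p of 0.043 to 0.0488, when either wt array after 4 h or either heterozygous array after 24 h was left out. In a fit without all 3 wt arrays of high Xist, which leaves 1 array in each wt group, Timp1 after TGFb was 0.40 higher in homozygous than in wt cells at 4 h and 0.50 higher at 24 h. With 1 array in a group, no test result is read from that fit.

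The response itself did not differ detectably between genotypes. In the interaction tests, which compare the change in a mutant with the change in wt, 0 of 21 were called by limma at 4 h or 24 h in either genotype, beside 0% of all probe sets. At an unadjusted p under 0.05 there was 1 at 4 h in each mutant, Serpinb2 in both, and 0 at 24 h. Plaur rose 0.58 log2 units more in homozygous than in wt cells at 4 h (SE 0.28, unadjusted p = 0.0574, adjusted p = 0.634). Without untreated wt array 1 that difference was 0.98, and without untreated wt array 2 it was 0.179. Without all 3 wt arrays of high Xist, which leaves 1 array in each wt group, the difference was 0.83 at 4 h and 0.82 at 24 h.

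The levels of the members over the 9 groups fell into a few shapes, given here as correlations over 9 group means with no test. Plaur, Serpinb2 and Timp3 were highest in the 3 groups after 4 h (r = 0.96 for Plaur with Serpinb2 and 0.92 for Plaur with Timp3). In the order of Timp1 levels the 3 untreated groups overlapped one another and stood apart from wt cells at 24 h, and the groups after 4 h were at the top. In the order of Plaur levels, the 3 groups at 4 h overlapped one another and stood apart from the next group down, homozygous cells at 24 h. Adamts1 and Adamts5 were highest in untreated cells (r = 0.96 with each other), and Adamts1 ran opposite to Timp1 (r = -0.97). Adamts4 resembled no other member (r from -0.55 to 0.29).

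Over the whole array the genes most like Plaur were Brix1, Wdr74 and Srm (r = 0.994 to 0.997), and those most like Serpinb2 were Capzb, Nhp2 and Polr2c (r = 0.994 or 0.995). Timp1 was most like Gfpt2, Hbegf and Sema4f (r = 0.989 to 0.993) and Timp3 most like Slc35d1, Fam110c and Ubtd1 (r = 0.987 to 0.992). For Adamts1 they were Fgfr2, Sav1 and Hs6st2 (r = 0.983 to 0.991), for Adamts4 Nupr1, Fam214a and Slc31a1 (r = 0.985 to 0.993), and for Adamts5 2310022B05Rik, Sorbs3 and Mertk (r = 0.986 to 0.992). Plat (Notch3, Nacc2 and Dnajc18, r = 0.947 to 0.954) and Timp2 (Mrpl4, Tubb2a and Map1lc3a, r = 0.952 to 0.956) had weaker matches.

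Of the other genes of the plasminogen system, 11 of 21 listed were measured. At 4 h 1 rose and 1 fell in wt, 2 and 1 in heterozygous, and 2 and 4 in homozygous cells, that is 2, 3 and 6 of 11, beside 17.1, 26.5 and 35% of all probe sets. At 24 h Itgb3 and Mrc2 rose and Serpinb6a fell in wt cells, Itgb3 rose in heterozygous cells, and limma called 0 in homozygous cells (2 at an unadjusted p under 0.05), beside 9.14, 5.07 and 6.44% of all probe sets. Itgb3, an integrin chain of the vitronectin receptor, rose at 4 h: it went from 6.08 and 6.93 to 8.24 and 8.29 in wt cells (1.76 log2 units, SE 0.25, adjusted p = 0.000814), and by 2.05 in heterozygous and 1.81 in homozygous cells (adjusted p = 0.000184 and 0.000292). Igf2r, a receptor that also binds the urokinase receptor, fell at 4 h, with changes of -0.59, -1.20 and -1.48 (adjusted p = 0.0361, 0.000522 and 9.23e-05). Serpinb6a rose at 4 h in the mutants by 0.32 and 0.39 (adjusted p = 0.00284 and 0.000676). Lrp1, a scavenger receptor of the cell surface, fell at 4 h in homozygous cells by 0.75 (adjusted p = 0.00258). Mrc2, a collagen receptor that associates with the urokinase receptor, fell there by 0.70 (adjusted p = 0.00124), from 11.08 to 10.38, and rose in wt cells at 24 h by 0.53 (adjusted p = 0.0196). Untreated homozygous cells were above untreated wt cells in Mrc2, which were at 10.29 (0.79, adjusted p = 0.0178). Itgav, the partner chain of Itgb3, fell at 4 h in homozygous cells (-0.27, adjusted p = 0.0447).

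Of the other ADAMTS and ADAMTS-like genes 8 of 22 were measured, and none passed the limma test at 4 h in any genotype, with 1, 2 and 2 at an unadjusted p under 0.05 in wt, heterozygous and homozygous cells, where 17.1, 26.5 and 35% of all probe sets were called. At 24 h in wt cells, where 9.14% were called, Adamts6 rose by 1.04 (adjusted p = 0.0181) and Adamts9 fell at least 1.93-fold to below the dim level (adjusted p = 0.00662). In the mutants at 24 h, where 5.07 and 6.44% were called, none of the 8 passed, with 2 and 3 at an unadjusted p under 0.05, and Adamts6 was 0.84 and 0.65 above untreated (adjusted p = 0.0684 and 0.151).

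Of the other metalloproteinase partners and inhibitors 11 of 15 were measured. Mmp9, the gelatinase that TIMP1 binds, rose at both times: by 1.45, 1.17 and 1.16 at 4 h and by 2.86, 2.00 and 2.12 at 24 h in wt, heterozygous and homozygous cells (adjusted p = 0.000263 to 0.0224). Reck, a membrane-anchored inhibitor of metalloproteinases, fell at 24 h, with changes of -0.92, -0.71 and -0.82 (adjusted p = 0.00519, 0.0296 and 0.011). Adam12 rose at 24 h by 0.44, 0.50 and 0.62 (adjusted p = 0.0368, 0.0296 and 0.00773). Adam9 fell in all 6 comparisons, with changes of -0.58 to -0.44 (adjusted p = 0.00727 to 0.0362), and Adam17 fell at 4 h in wt and homozygous cells by 0.46 (adjusted p = 0.0195 and 0.00935). At 4 h Adam19 rose by 0.42, 0.59 and 0.41 (adjusted p = 0.027, 0.0031 and 0.016) and Adam10 fell, with changes of -0.37, -0.40 and -0.45 (adjusted p = 0.0213, 0.00845 and 0.00342). Mmp2, the other gelatinase gene, rose in wt cells at 24 h by 0.50 (adjusted p = 0.0265) and fell in homozygous cells at 4 h (-0.36, adjusted p = 0.0415), where the untreated level was above that of wt cells (0.64, adjusted p = 0.0385). Spock3 was called higher at 24 h in heterozygous cells (adjusted p = 0.0354), where 1 array alone passed the dim level (3.3 and 3.6 untreated, 5.11 and 4.46 at 24 h). In all, 2 rose and 3 fell at 4 h in wt, 2 and 2 in heterozygous, and 2 and 5 in homozygous cells, beside 17.1, 26.5 and 35% of all probe sets. At 24 h 3 rose and 2 fell in wt and in heterozygous cells, and 2 and 2 in homozygous cells, beside 9.14, 5.07 and 6.44%.

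Of the substrates 5 of 15 were measured. Vcan, which encodes versican, fell at 4 h, with changes of -0.43 in heterozygous and -0.47 in homozygous cells (adjusted p = 0.0185 and 0.00921). At 24 h it rose by 0.70 in wt and 0.67 in heterozygous cells (adjusted p = 0.00316 and 0.00553). Fn1, the fibronectin gene, fell at 4 h, with changes of -0.23 and -0.34 in the mutants (adjusted p = 0.0175 and 0.00151). Bgn, which encodes the proteoglycan biglycan, fell at 4 h in homozygous cells (-0.19, adjusted p = 0.0271). Hgf, a growth factor that urokinase can activate, fell to below the dim level at 24 h in wt cells, at least 2.85-fold (adjusted p = 0.0179), and in homozygous cells, at least 1.57-fold (adjusted p = 0.0386). At 4 h none of the 5 was called higher in any genotype. In wt, heterozygous and homozygous cells 0, 2 and 3 were called lower, with 4, 3 and 3 at an unadjusted p under 0.05. Of all probe sets 17.1, 26.5 and 35% were called at 4 h in either direction. At 24 h 1 was higher and 1 lower in wt, 1 higher in heterozygous and 1 lower in homozygous cells. The share of all probe sets was then 9.14, 5.07 and 6.44%. With only 5 genes, these counts are not read as a result about the substrates.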

How the data were processed

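RNA of mouse embryonic fibroblasts was hybridised to 18 Affymetrix arrays, 2 for each of 9 groups. The deposited intensity values are on a linear scale and were made by the authors with GCRMA, per the submitters' processing notes; the version is not given in the sources used here. GCRMA subtracts a background modelled from probe sequence, which pushes dim probe sets to a floor, and equalises the arrays.

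Values were put on the log2 scale. Probe sets at or above log2 5 on at least 2 arrays were kept (18958 of 45101, leaving out 64 controls). Genes come from the platform annotation, which can be old; 34945 probe sets name 1 gene, 932 several and 9160 none. limma 3.58.1 in R 4.3.3 fitted 9 group means with an intensity trend, with 20 comparisons. In each, Benjamini-Hochberg adjustment ran over all 18958 probe sets, and a probe set was called at an adjusted p under 0.05. "Brightest" means the probe set of a gene with the highest mean. Where both arrays of a group are dim, the fold is a bound against log2 5, and none is given where both groups are dim. The script was tested on simulated data.

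The named genes are all 10 members, at most 3 genes called higher and 3 called lower in each of 4 pathway lists, those of largest change, with Reck, and the 3 genes of highest correlation with each member over the 9 group means. Adam10, Adam17, Adam19, Mmp2, Itgav and Bgn were named after their values were seen, to complete counts. Members and lists were chosen with earlier results of these data known. No 2 arrays were identical, and the correlation between arrays was 0.9734 to 0.9937. The root mean square SD between the 2 arrays of a group was 0.335 to 0.411 log2 units in the wt groups and 0.195 to 0.276 in the mutant groups. The fit pools the spread of a probe set over all 9 groups. Its p-values can therefore be too small in wt cells and too large in the mutants. With 2 arrays a group their number limits the precision. No scan dates were used. Alternatives changed 1 choice at a time: the filter, probe sets, normalization, pseudocount, trend, array weights, arrays fitted, blocks, and leaving out each array.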

Additional observations from a re-analysis of the deposited data

How the results depend on the processing

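Over the 6 TGFb comparisons 49 probe-set calls were made. Leaving out 1 array gave 38 to 49, and 22 of the 49 calls were kept in every such fit. The count was 30 with 1 probe set per gene, where 10 were tested instead of 21, and 31 when only the groups compared were fitted, where each fit has fewer arrays. It was 37 to 51 under the other planned settings and the macrophage covariate. Of the 22 calls between 4 h and 24 h, 13 were kept in every fit that left out an array, with counts of 18 to 25, and 1 probe set per gene gave 13. Without the 3 wt arrays of high Xist that count was 35. Against 0 calls between untreated genotypes, that fit gave 5, and against 0 between genotypes under TGFb and 0 in the interactions it gave 2 and 2. Leaving out 1 array gave 0 to 4 between untreated genotypes, 4 of them without untreated wt array 1, and 0 to 1 in the interactions. The mean of the macrophage markers as a covariate gave 6 and 13 calls between genotypes, untreated and under TGFb. It also turned Timp1 in heterozygous against wt cells at 4 h from 0.0685 (adjusted p = 0.906) to -0.539 (adjusted p = 0.0487); the cause was not tested. These settings were chosen after the data were seen. Every mutant array had a higher macrophage sum than every wt array, so the covariate cannot be separated from genotype. Apart from those of the main fit, the counts here stand without the share over all probe sets and are not read as a result about the members.

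The array numbers do not pair the arrays over all groups: differences between array 1 and array 2 correlated over 0.1 in 7 of 9 pairs of groups within a genotype and in 4 of 27 between genotypes. A replicate block over all groups changed no call. A replicate block within genotype gave 50 calls after TGFb and 23 between the times, and 1 and 4 between genotypes, untreated and under TGFb, all of them Adamts4 (adjusted p = 0.0194 to 0.0484). It takes the spread between the 2 arrays of a genotype out of the error against which genotypes are compared. The counts of the replicate blocks stand without the share over all probe sets and are not read as a result about the members. In wt cells the correlations with the untreated group were -0.391 and -0.576, and with its numbers crossed the replicate block gave 58 calls after TGFb, 35 between the times, and 7 and 12 between genotypes, Plat in wt cells at 4 h among the calls after TGFb. Of up to 420 single values per setting, 15 calls were lost without a filter on dim probe sets, 19 with array weights and 30 when only the groups compared were fitted, and no other direction of a called value turned. With 2 arrays a group, small differences and those of probe sets near the dim level cannot be resolved.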

Other observations

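The gap in Plau between the wt arrays belonged to a small group of probe sets. Of 18958, 22 differed by over 4 log2 units between the 2 arrays in all 3 wt groups, and both Plau probe sets were among them. Ang, which encodes angiogenin, was at 8.65 to 9.81 in the 3 wt arrays with high Xist and low Plau, at 1.57 to 1.61 in the other 3, and at 1.57 to 1.79 in the mutants. Ifi202b, an interferon-inducible gene, ran with Plau: it was at 2.78 to 4.59 in the arrays with low Plau, at 8.85 to 10.62 in the other wt arrays and at 9 to 11.64 in the mutants. The mutant arrays, whether of high or low Xist, had the Plau, Ang and Ifi202b levels of the wt arrays with low Xist. What sets these arrays apart was not tested.

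Compared only between wt arrays of the same Xist level, or mutant arrays of the same number, Plau rose in all 6 series from untreated to 4 h, by 0.08 to 0.61, and was lower at 24 h than at 4 h in all 6 (-1.20 to -0.22). Plat was lower at 4 h than untreated in all 6 (-0.57 to -0.32). These values are a description. Adamts4 at 24 h stood 0.72 above untreated in the wt arrays with high Xist and 1.98 in those with low Xist, against 1.55 to 1.76 in the 4 mutant series.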
